A study of Mus musculus with 41 samples.

Results

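Gene expression in mouse melanomas collected long after oncogene withdrawal was compared with that in melanomas collected on the first day after it. The tumours came from iBIP mice, a strain in which a doxycycline-dependent BRAF transgene drives melanoma, and doxycycline (dox) had been taken out of the drinking water for a stated number of days. The late group held 8 tumours: 3 of day 63, 2 of day 77, 1 of day 90 and 2 of day 121. The other group held 6 tumours of day 1. These 14 of the 41 tumours of the series were chosen by their labelled day and by their title number, the late tumours being those whose title numbers begin with 3, and the day 1 tumour numbered 1007 being left out. All 14 had lost the drug, so neither group is an untreated control. The labels give no allele other than the inducible BRAF, no age and no promoter for the transgene, and do not say whether each tumour came from a separate mouse or whether the late tumours had persisted or grown back. The p-values below measure the spread between these tumours only. Skin had been trimmed from each tumour before a small piece was stored, and total RNA was hybridised as biotin-labelled cRNA to Affymetrix whole-genome mouse arrays.

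BRAF is a kinase that passes growth signals through MEK to ERK, the MAPK pathway, and ERK in turn switches on genes for its own inhibitors (dual-specificity phosphatases, Sprouty proteins), for ETS and AP-1 transcription factors and for cyclin D1. In melanomas with mutant BRAF, blocking the pathway stops the cell cycle, lowers glycolysis and is known for drawing immune cells into the tumour at first. Melanomas arise from melanocytes, which share their neural crest origin with the Schwann cells that wrap nerves.

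Values are log2 intensities, and each change is the late mean minus the day 1 mean, with its standard error (SE) where one is given. A gene was called changed at a limma adjusted p under 0.05 over all genes tested. Where 3 values are given for a group, they are its lowest, median and highest tumour. Tumours within a group carry numbers in order of deposit, which have no other meaning.

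The arrays of the groups had similar spike-in levels, by which the comparison was chosen: the hybridisation control bioD read 12.01 to 12.43 on day 1 and 12.16 to 12.40 in the late tumours, against 11.70 to 13.28 in the series. RNA quality was not matched. The gap between the 3′ and 5′ probe sets of Gapdh, which widens as RNA is degraded, averaged 0.59 ± 0.29 (SD, n = 6) on day 1 and 2.42 ± 1.39 (SD, n = 8) in the late tumours, a difference of 1.84 (two-sided exact permutation test over 3003 splits, adjusted p = 0.0147 over both control genes). The same gap of beta actin averaged 1.18 ± 0.30 and 2.36 ± 0.66, a difference of 1.19 (exact permutation test, adjusted p = 0.00799). The late tumours were not alike in this. Late tumours 5 (day 77) and 8 (day 121) had Gapdh gaps of 0.60 and 0.27, within the day 1 range of 0.33 to 1.04 or below it, whereas the other 6 had gaps of 2.19 to 4.04. The beta actin gap of late tumour 5, 1.81, was still wider than the widest of day 1, 1.64. Counts over many of the gene lists, and values of many genes, are therefore given a second time for late tumours 5 and 8 alone against the same 6 day 1 tumours, called the narrow-gap comparison below. These 2 tumours are also in the late group, so a direction or call kept there is no independent support. With 2 late tumours the changes are imprecise and are given without SE. A missing call there does not by itself show a smaller change. Title number range and group cannot be told apart.

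**Figure D1:**
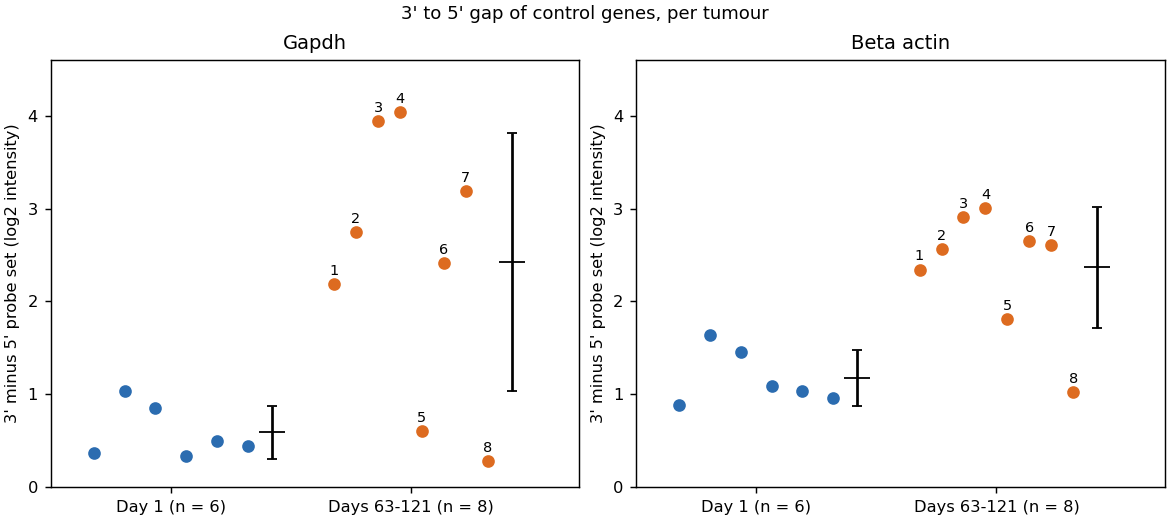
Gap between the 3′ and the 5′ control probe set (y axis, log2 intensity) of Gapdh (left) and beta actin (right) in each of the 6 day 1 tumours (blue) and 8 late tumours (orange, numbered), with the group mean and SD in black. For Gapdh, late tumours 5 and 8 lie at 0.60 and 0.27 beside the day 1 tumours and the other late tumours lie between 2.19 and 4.04.

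The groups differed in a large share of genes. Of 18194 genes with a probe set of their own, 13474 passed the filter on low values and were tested, and 6831 of these (50.7%) were called: 3525 (26.2%) higher and 3306 (24.5%) lower in the late tumours. A change of at least 2-fold was called higher in 602 genes (4.47%) and lower in 679 (5.04%). The median change over all genes tested was 0.03. A list in which the shares higher and lower lie close to 26.2% and 24.5% is thus near this background.

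**Figure D2:**
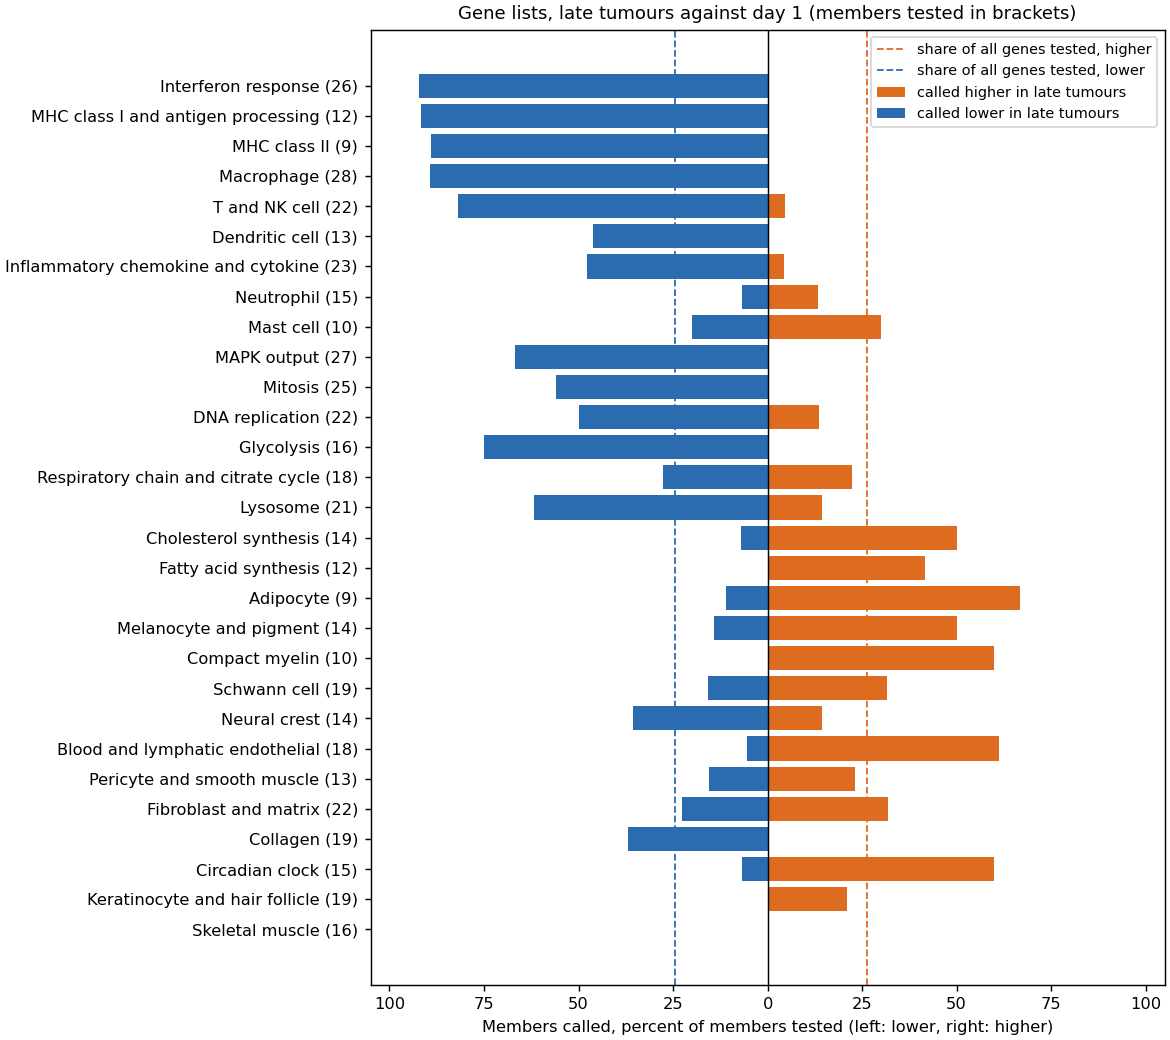
Percent of the tested members of each gene list (number tested in brackets) that were called lower (blue, to the left) or higher (orange, to the right) in the late tumours, with the same percent over all genes tested as dashed lines. The interferon, MHC, macrophage and T and NK cell lists at the top reach far to the left of the 24.5% line, and the cholesterol, fatty acid, adipocyte, compact myelin, endothelial and clock lists reach to the right of the 26.2% line.

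Genes of interferon signalling and antigen presentation were lower in the late tumours than on day 1. In the Interferon response list, 24 of 26 tested members fell and none rose, with a median change of -1.61 against 0.03 over all genes tested. Cxcl10, a chemokine that attracts T cells, read 8.55, 10.56 and 11.31 on day 1 and 6.49, 7.27 and 8.23 in the late tumours, a change of -2.98 ± 0.40 (adjusted p = 5.7e-05), 7.88-fold lower. Every late tumour lay below every day 1 tumour for this gene, which was so, in this direction, for 9.34% of all genes tested. Irf7, the transcription factor that amplifies type I interferon production, went from 8.45, 9.46 and 10.49 to 6.19, 6.60 and 7.44 (-2.88 ± 0.33, adjusted p = 2.11e-05), also without overlap. The antiviral 2′-5′-oligoadenylate synthetase genes followed: Oasl1 changed by -1.89 ± 0.18 and Oas1a by -2.42 ± 0.27. In the narrow-gap comparison, which called 10.9% of all genes tested higher and 15.1% lower, 15 of the 26 members fell, with a median of -1.51.

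The machinery that loads peptides on MHC class I fell with it. In MHC class I and antigen processing, 11 of 12 tested members fell, Erap1 being the one not called, and the median change was -1.24. Tap1, a subunit of the transporter that moves peptides into the endoplasmic reticulum, read 8.64, 10.46 and 11.10 on day 1 and 7.39, 8.03 and 8.48 late, a change of -2.30 ± 0.32 (adjusted p = 6.52e-05). The immunoproteasome subunits Psmb9, Psmb8 and Psmb10 changed by -2.09 ± 0.28, -1.72 ± 0.25 and -1.52 ± 0.20, all with no overlap between groups. All 11 were called lower in the narrow-gap comparison too, with a median of -1.44. In MHC class II, 8 of 9 members fell with a median of -1.71. H2-DMa, which helps to load peptides on class II molecules, read 9.52, 10.05 and 11.13 and then 6.60, 7.78 and 8.78, 5.75-fold lower (adjusted p = 6.02e-05). Ciita, the master regulator of class II genes, read 6.61, 7.02 and 8.33 and then 5.08, 5.33 and 6.05 (-1.89 ± 0.28), and the class II beta chain gene H2-Eb1 fell by 1.71 ± 0.30. In bulk tumour RNA, fewer cells of a type and less RNA per cell cannot be told apart, here and for every cell type below.

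T and NK cell genes were lower in 18 of 22 tested members, with a median of -1.23. Ccl5, a chemokine made by activated T and NK cells, read 9.17, 10.71 and 11.58 on day 1 and 6.42, 6.90 and 7.76 in the late tumours, 12.1-fold lower (-3.60 ± 0.34, adjusted p = 7.19e-06). The granzymes, proteases by which killer lymphocytes destroy their targets, went the same way: Gzmb read 8.35, 9.57 and 10.57 and then 5.83, 6.72 and 7.13 (-2.94 ± 0.28), and Gzma, Gzmc and Gzme changed by -2.61 ± 0.35, -3.10 ± 0.35 and -2.82 ± 0.33. The granule gene Nkg7 changed by -2.94 ± 0.35 and the perforin gene Prf1 by -1.93 ± 0.24. The groups did not overlap for any of these 7 genes, although a dimmer probe set of Prf1 was not called. In all, 18 of 22 members were called lower in the narrow-gap comparison (median -1.61). Zap70, a T cell receptor kinase gene, was the one member called higher (0.41 ± 0.10), by its brightest probe set. Both of its other tested probe sets fell, and it was named after its values were seen.

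Macrophage genes fell in 25 of 28 tested members and none rose (median -1.02). C1qb, a chain of the complement starter C1q that macrophages make, read 11.83, 12.14 and 12.55 on day 1 and 9.01, 9.83 and 10.51 late (-2.42 ± 0.24, adjusted p = 8.34e-06), and C1qc fell by 2.03 ± 0.22. Fcgr1, a high-affinity receptor for IgG, read 8.56, 9.34 and 9.99 and then 6.56, 6.97 and 7.67 (4.98-fold lower), and Fcer1g, the signalling chain of Fc receptors, fell by 1.38 ± 0.13. C1qa had the largest fall among genes whose groups did not overlap, 15.2-fold, but the late tumours were spread over 6.49, 7.88 and 11.02 after 11.61, 12.43 and 12.69 on day 1. Its highest late values, 10.35 and 11.02, were those of late tumours 5 and 8, whose Gapdh gaps were the narrowest, so the narrow-gap change was -1.64 where the change over all late tumours was -3.93 ± 0.62. For C1qb and Fcgr1 the narrow-gap changes were -1.87 and -1.79. In all, 16 of the 28 members were called lower in the narrow-gap comparison.

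Other leukocyte genes moved less uniformly. Of 13 dendritic cell genes, 6 fell, led by the actin bundler Fscn1 (-1.75 ± 0.16). Of 23 inflammatory chemokine and cytokine genes 11 fell, among them the monocyte attractant Ccl8 (-1.51 ± 0.29) and the macrophage growth factor Csf1 (-0.67 ± 0.14), and the stromal chemokine Cxcl12 alone rose (1.07 ± 0.21). With late tumours 5 and 8 alone, 1 of the 13 dendritic cell genes and 4 of the 23 chemokine and cytokine genes were lower, Fscn1 at -1.37 and Ccl8 at -1.51, and Cxcl12 was not called (0.71). Neutrophil genes did not share the fall. The calprotectin genes S100a8 and S100a9 rose by 1.13 ± 0.45 and 1.57 ± 0.55 (adjusted p = 0.0468 and adjusted p = 0.0273), with overlapping groups, and Mmp9 changed by -0.96 ± 0.26, which in the narrow-gap comparison was -0.28 and not called. The narrow-gap changes of S100a8 and S100a9 were 1.76 and 2.39, the second of them called. The S100a8 call ended without any 1 of 10 of the tumours and that of S100a9 without day 1 tumour 1, 3 or 6 or late tumour 1 (adjusted p up to 0.107 and 0.0667, both without day 1 tumour 1). Day 1 tumour 5 had the highest values of its group for both, and 12 of the 15 neutrophil genes tested, the receptor gene Csf3r among them, were not called. Mast cell genes split: the tryptase genes Tpsb2 and Tpsab1 changed by -1.02 ± 0.27 and -1.72 ± 0.48, while the IgE receptor chain Ms4a2 and the transcription factor Gata2 rose by 1.34 ± 0.39 and 0.93 ± 0.23. Ms4a2 and Gata2 were at 0.48 and 0.27 in the narrow-gap comparison, neither called. Tpsab1, at -2.89, was the one member of the Mast cell list called there. The mast cell protease gene Mcpt1, outside the list, was called lower there too. B and plasma cell genes were sparsely measured, 7 of 15 members passing the filter, and the B cell genes Cd22 and Cd79b were called lower (-1.38 ± 0.22 and -0.61 ± 0.20). The Cd79b call ended without day 1 tumour 1 or 6 (adjusted p up to 0.0572).

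**Figure D3:**
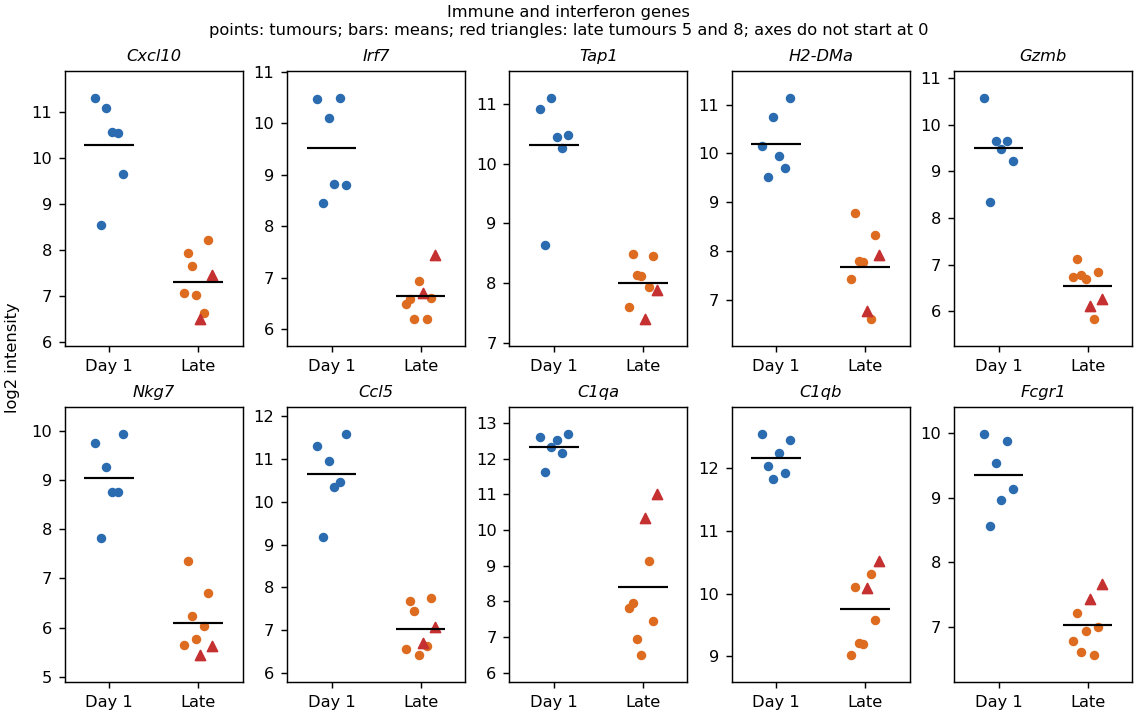
Log2 intensity (y axis) of 10 immune genes in each day 1 tumour (blue) and each late tumour (orange; red triangles for late tumours 5 and 8), with group means as bars. The groups do not overlap for any of the 10 genes, and for C1qa the red triangles are the highest of the late group at 10.35 and 11.02.

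Levels of 3 of these genes elsewhere in the series were as follows. Day 0 tumours (n = 4), whose arrays had other spike-in levels, had a mean Ccl5 value of 7.32 ± 1.00 (SD), H2-DMa of 7.80 ± 0.98 and C1qb of 9.96 ± 1.03, against late group means of 7.04, 7.67 and 9.75 and day 1 means of 10.64, 10.20 and 12.17. The later tumours of days 136 and 163, 1 of each, read 6.10 and 6.73 for Ccl5 and 9.55 and 8.60 for C1qb. The day 1 tumour left out of the comparison lay below the lowest of the 6 for 2 of them: it read 7.59 for Ccl5 and 7.97 for H2-DMa. Both values lay inside the late ranges given above. With this tumour counted, day 1 and late values would overlap for these 2 genes. These values are descriptions across arrays with unequal spike-in levels and were not tested.

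Genes switched on by ERK were lower late than on day 1, although the day 1 tumours had been off dox too. In the MAPK output list 18 of 27 tested members fell and none rose (median -0.57), 9 of them without overlap between groups. Ccnd1, which encodes cyclin D1, read 11.35, 12.13 and 12.18 on day 1 and 9.55, 10.41 and 10.52 late (-1.65 ± 0.17, adjusted p = 1.1e-05), 3.14-fold lower. The ERK phosphatase gene Dusp5 went from 7.78, 8.21 and 8.85 to 6.71, 6.98 and 7.08 (-1.31 ± 0.16), and the AP-1 subunit gene Fosl1 fell by 1.64 ± 0.22. The ETS factor gene Etv4 changed by -0.98 ± 0.13, without overlap. The inhibitor genes Dusp6 and Spry4 had overlapping groups and changed by -0.72 ± 0.15 and -0.64 ± 0.17 (adjusted p = 0.00144 and adjusted p = 0.00588). Hmga2, a chromatin protein gene of the same list, fell by 3.13 ± 0.44, and its late values ran from 6.70 to 10.13, the highest being late tumour 8. The narrow-gap comparison called 15 of the 27 lower and none higher (median -0.81).

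Braf itself, measured by the brightest of its probe sets, rose by 0.67 ± 0.09 (adjusted p = 8.18e-05), from 8.19, 8.35 and 8.67 to 8.82, 9.08 and 9.26. Its probe sets did not move together, and the mean over them changed by 0.12 (adjusted p = 0.31). The sources used here do not say whether the transgene is seen by any of these probe sets. Cdkn2a did not pass the filter on low values.

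Of 19 growth factor ligands tested, 6 rose and 6 fell. Hbegf, a ligand of the EGF receptor, read 8.70, 9.00 and 10.20 and then 6.57, 6.87 and 8.14 (-2.11 ± 0.29, adjusted p = 6.4e-05), and Ereg, another such ligand, fell by 1.62 ± 0.39, with late tumour 4 at 9.42 inside the day 1 range. The platelet-derived growth factor gene Pdgfa fell by 0.63 ± 0.14. Fgf7, a fibroblast growth factor that acts on epithelia, went from 8.05, 8.79 and 9.62 to 9.65, 10.13 and 11.41 (1.45 ± 0.28, adjusted p = 0.000712). Fgf5, a ligand of the same family that ends hair growth, had the largest rise of any gene with separate groups, from 4.95, 5.38 and 6.58 to 8.60, 9.64 and 10.33, 14.6-fold (3.86 ± 0.35, adjusted p = 5.35e-06). Its narrow-gap change was 3.72. The day 1 median of Fgf5 lay below the filter cut of 5.67. Growth factor receptors were called higher in 11 of 22 and lower in 4, with Pdgfra up (1.13 ± 0.19) and Pdgfrb down (-0.87 ± 0.21). Only 1 receptor gene was called higher in the narrow-gap comparison, Pdgfra remaining at 1.16 but Fgfr2 going from 1.15 ± 0.27 to 0.11 and Insr from 0.64 ± 0.14 to 0.39.

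In the BMP and Id list 7 of 16 tested members rose and 4 fell. The BMP ligands Bmp2 and Bmp4 moved in opposite directions. Bmp2 read 8.25, 9.90 and 10.87 on day 1 and 6.59, 7.22 and 8.06 late (-2.57 ± 0.35, adjusted p = 5.7e-05), and Bmp4 read 5.83, 6.21 and 7.46 and then 7.85, 8.47 and 9.01 (2.16 ± 0.26, adjusted p = 2.39e-05), neither with overlap. The receptor genes Bmpr1a and Bmpr2 rose by 1.08 ± 0.11 and 0.67 ± 0.10. Tgfb1, the main immunosuppressive member of the related TGF beta family, read 8.89, 9.55 and 10.08 and then 6.18, 6.95 and 7.90, 6.03-fold lower (-2.59 ± 0.28, adjusted p = 1.24e-05). The activin subunit gene Inhba fell by 1.85 ± 0.24, while Thbs1, whose product can activate latent TGF beta, rose by 1.16 ± 0.17. All 7 genes named here kept their direction and call in the narrow-gap comparison, with -2.83 for Bmp2, 1.98 for Bmp4 and -1.74 for Tgfb1. Its tumours also entered the fit by which these genes were named, so this is no independent support.

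Genes of mitosis are switched off in non-dividing cells through promoters that carry a CHR element, often beside CCAAT boxes bound by NF-Y. The promoters of 3 of the Mitosis genes of lowest p are printed from RefSeq (build GRCm38.p6), from 250 bases before to 50 bases after the gene start and in the direction of the gene, because these members fell together. Plk1 lies at chr7:122159185-122159484 on the plus strand, Kif2c at chr4:117178723-117179022 on the minus strand and Aurka at chr2:172370521-172370820 on the minus strand. Capitals mark each TTTGAA (the CHR element) and CCAAT on either strand.
Plk1: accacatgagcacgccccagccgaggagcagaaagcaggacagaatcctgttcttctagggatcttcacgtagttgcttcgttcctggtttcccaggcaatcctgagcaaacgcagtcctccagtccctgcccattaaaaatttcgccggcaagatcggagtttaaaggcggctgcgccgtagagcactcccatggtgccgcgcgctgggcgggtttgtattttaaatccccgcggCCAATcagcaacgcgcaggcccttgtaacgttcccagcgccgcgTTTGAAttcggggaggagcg
Kif2c: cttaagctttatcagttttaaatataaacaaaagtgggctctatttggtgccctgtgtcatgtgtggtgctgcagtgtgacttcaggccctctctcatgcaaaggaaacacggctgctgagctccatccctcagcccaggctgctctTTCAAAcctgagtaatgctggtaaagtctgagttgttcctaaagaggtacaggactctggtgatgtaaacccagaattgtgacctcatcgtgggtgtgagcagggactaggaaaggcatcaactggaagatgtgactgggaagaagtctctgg
Aurka: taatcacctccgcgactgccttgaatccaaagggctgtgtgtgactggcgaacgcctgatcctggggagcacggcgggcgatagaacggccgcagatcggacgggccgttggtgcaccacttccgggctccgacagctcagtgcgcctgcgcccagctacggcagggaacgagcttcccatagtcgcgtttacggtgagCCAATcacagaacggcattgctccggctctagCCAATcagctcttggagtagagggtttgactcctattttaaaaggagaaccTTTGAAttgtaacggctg
The Plk1 and Aurka windows each hold a CHR element after the gene start, with its first base at positions 31 and 33, and CCAAT boxes before it, at -14 in Plk1 and at -51 and -19 in Aurka. The Kif2c window holds a CHR element on the opposite strand at -103 and no CCAAT. Of 23 promoters listed for 22 of the 26 Mitosis genes, 17 (73.9%) hold TTTGAA and 19 (82.6%) hold CCAAT on either strand, against 17.9% and 37.4% of all 32851 promoters of the same length. TTTGAA and CCAAT do not overlap in these 3 windows. A match is a description of the letters and not of binding. The shares cover listed Mitosis genes whether called or not, and a link between the letters and the fall was not tested.

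In the Mitosis list 14 of 25 tested members fell, none rose, and the median change was -0.80. Plk1, the kinase that drives spindle assembly, read 7.16, 7.69 and 7.93 on day 1 and 5.54, 6.09 and 6.79 late (-1.50 ± 0.18, adjusted p = 3.11e-05). The spindle kinases Aurka and Aurkb and the kinesin Kif2c changed by -0.94 ± 0.16, -1.11 ± 0.19 and -1.26 ± 0.19. Mki67, which encodes the proliferation antigen Ki-67, was not called (-0.59 ± 0.30, adjusted p = 0.111): it read 9.76, 10.13 and 10.28 on day 1 and 7.81, 9.49 and 10.28 late. Late tumours 1 and 4, at 10.28 and 10.16, were as high as the day 1 tumours, and late tumour 6 of day 90 was the lowest at 7.81. Late tumour 6 was lowest for the whole Mitosis list too, with a level of 6.38 where the other late tumours had 6.93 to 7.82 and the day 1 tumours 7.56 to 8.25. The narrow-gap comparison called 8 of 25 members lower (median -0.38).

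DNA replication genes fell in 11 of 22 tested members. The replicative ligase gene Lig1 read 8.56, 8.94 and 9.25 and then 7.78, 7.93 and 8.30 (-0.96 ± 0.12, adjusted p = 3.73e-05), and thymidine kinase Tk1, the helicase subunit Mcm2 and the licensing factor Cdt1 changed by -1.29 ± 0.26, -0.79 ± 0.16 and -0.59 ± 0.12. The sliding clamp Pcna, its loader subunit Rfc4 and the primase Prim1 were the 3 members called higher, by 0.42 ± 0.14, 0.49 ± 0.17 and 0.57 ± 0.23, and were named after their values were seen. The call ended without day 1 tumour 3 for each of them, also without day 1 tumour 4 for Pcna, and for Prim1 without any 1 of 11 tumours (adjusted p up to 0.0526 for Pcna, 0.0646 for Rfc4 and 0.101 for Prim1). None of those rises was called in the narrow-gap comparison, in the fits with either gap as a covariate or for days 90 and 121 alone.

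Glycolysis genes fell in 12 of 16 tested members and none rose (median -0.67), 7 without overlap. The phosphofructokinase gene Pfkl read 8.70, 9.10 and 9.94 on day 1 and 6.87, 7.27 and 7.73 late, 3.83-fold lower (-1.94 ± 0.18, adjusted p = 5.8e-06). Hexokinase Hk1, which traps glucose in the cell, went from 9.91, 10.20 and 10.39 to 8.24, 8.68 and 9.16 (-1.41 ± 0.14). Pkm, the last enzyme of the pathway, read 11.67, 12.02 and 12.10 and then 9.78, 10.69 and 10.91 (-1.42 ± 0.16), and Pgam1 fell by 1.02 ± 0.14. Gapdh, the source of one quality gap, fell by 1.15 ± 0.20 over all late tumours, its change being -0.61 in the narrow-gap comparison. In that comparison 10 of the 16 were lower, with a median of -0.67. Respiratory chain and citrate cycle genes gave no common direction, with 4 of 18 higher and 5 lower: the complex III subunit Uqcrc1 fell by 0.71 ± 0.11 and the complex I subunit Ndufs1 rose by 0.57 ± 0.11.

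Lysosome genes fell in 13 of 21 tested members and rose in 3. The membrane protein gene Laptm5, which blood cells express, changed by -1.34 ± 0.15, and the hydrolase genes Ctsz, Ctsa and Glb1 by -1.19 ± 0.13, -1.21 ± 0.14 and -1.10 ± 0.13. Ctsa read 10.94, 11.19 and 11.56 on day 1 and 9.48, 10.10 and 10.32 late. Of the 21, 12 were lower and 2 higher in the narrow-gap comparison (median -0.63). Macrophage genes, which fell beside them, were described above, and their part in the lysosome values was not tested.

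Cholesterol synthesis genes rose in 7 of 14 tested members, and Mvk alone fell (-0.27 ± 0.10). That call ended without any 1 of 9 tumours (adjusted p up to 0.0969), and the gene was named after its value was seen. Idi1, an enzyme of isoprenoid formation, read 7.88, 8.51 and 9.03 on day 1 and 9.55, 9.93 and 11.04 late (1.64 ± 0.25, adjusted p = 0.00012). The sterol sensor partner Insig1 went from 7.11, 7.30 and 7.67 to 7.75, 8.43 and 8.62 (1.02 ± 0.13), and the pathway enzymes Cyp51 and Sqle rose by 1.32 ± 0.26 and 1.14 ± 0.20. In the narrow-gap comparison 4 of 14 were called higher and 2 lower, with Idi1 at 1.14 and Insig1 at 1.10. Fatty acid synthesis genes rose in 5 of 12 and none was called lower, with a median change of 0.23 and 5 members below 0. Across the alternative settings, 1 to 6 members were called higher and 0 to 3 lower. Scd1, the desaturase that makes oleate, read 9.98, 10.16 and 11.12 and then 11.44, 12.86 and 13.37 (2.16 ± 0.31, adjusted p = 8.62e-05), and the elongase Elovl6 rose by 2.56 ± 0.57.

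Elovl6 was not evenly high among the late tumours. It read 7.63 in late tumour 5 and 9.13 in late tumour 8, against 9.56 to 11.74 in the other 6 and 7.15, 7.75 and 8.54 on day 1. The same 2 tumours were low for genes of skin appendages. The Keratinocyte and hair follicle list, of which 4 of 19 members rose and none fell, had a mean level of 5.89 to 9.07 on day 1 and 5.65 to 10.72 in the late tumours. Late tumour 6, with a Gapdh gap of 2.42, also had a list level inside the day 1 range, 7.88. Its Elovl6 value was high, at 11.15. Krt17, a keratin of hair follicles, read 5.06 in late tumour 5 and 6.55 in late tumour 8 and 8.42 to 10.34 in the others, and Trp63, the regulator of basal epithelium, read 5.24 and 7.06 against 7.97 to 10.02. The narrow-gap changes were -0.32 for Krt17 and 0.26 for Trp63, where all late tumours gave 2.26 ± 0.74 and 2.52 ± 0.65. Adipocyte genes rose in 6 of 9 tested members over all late tumours (Cd36 2.79 ± 0.45, Fabp4 2.23 ± 0.43, Lpl 1.74 ± 0.37) and in 0 of 9 in the narrow-gap comparison. There the changes of Fabp4 and Cd36 were still 2.13 and 1.80, without a call, and that of Lpl was 0.34. The adipokine gene Adipoq did not pass the filter. The hormone-sensitive lipase gene Lipe fell (-0.92 ± 0.13). The part of epidermal or fat RNA in the lipid genes was not tested. The Adipocyte list level was 6.39 to 7.84 on day 1 and 7.18 to 9.17 in the late tumours. No skeletal muscle gene of 16 tested was called, and that list's level was 5.71 to 8.47 on day 1 and 5.61 to 9.69 in the late tumours.

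Some genes of Schwann cells were higher late. In the Schwann cell list 6 of 19 tested members (31.6%) rose, near the 26.2% of all genes tested, and 3 (15.8%) fell. In Compact myelin 6 of 10 (60%) rose and none fell. Kcna1, a potassium channel gene known from myelinated nerve fibres, read 8.42, 9.79 and 11.50 on day 1 and 12.35, 12.75 and 13.28 late, 7.1-fold higher (2.83 ± 0.36, adjusted p = 4.18e-05), without overlap, as was so in this direction for 8.44% of all genes tested. Ugt8a, which makes the myelin lipid galactosylceramide, went from 4.52, 4.71 and 4.97 to 6.35, 7.11 and 8.37 (2.43 ± 0.24, adjusted p = 8.07e-06), and Mal, a myelin membrane protein gene, from 7.63, 8.56 and 9.90 to 10.27, 10.91 and 11.58 (2.32 ± 0.36). Late tumour 8 had the highest Ugt8a value. Every day 1 value of Ugt8a lay below the filter cut of 5.67, so the late tumours alone brought it into the test. The sodium channel gene Scn7a and the cadherin gene Cdh19 rose by 1.55 ± 0.27 and 1.06 ± 0.20. Mbp, the myelin basic protein, rose by 2.90 ± 0.64, with groups that overlapped because day 1 tumour 5 reached 10.16 and late tumours 1 and 5 were at 8.83 and 9.02. In the narrow-gap comparison Ugt8a, Mal, Kcna1, Scn7a and Cdh19 were called higher again (3.20, 2.27, 2.68, 1.39 and 1.36), and Fa2h and Sostdc1 were not (0.47 and 1.11, from 3.01 ± 0.71 and 2.84 ± 0.59).

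In the Melanocyte and pigment list 7 of 14 tested members rose and 2 fell, against 0 and 1 in the narrow-gap comparison. Tyr and Mlana did not pass the filter, and Tyrp1 and Dct lay near the lowest intensities on day 1, at 4.92, 5.11 and 5.56 and 5.24, 5.77 and 5.98. Over all late tumours Tyrp1, Dct and the melanosome GTPase Rab38 rose by 1.33 ± 0.42, 1.29 ± 0.39 and 1.17 ± 0.38, but late tumour 5 read 4.97, 5.61 and 7.68 and late tumour 8 read 5.09, 6.05 and 7.94, inside the day 1 range or within 0.1 of it, and the narrow-gap changes were -0.16, 0.19 and -0.12. Mitf, the master regulator of melanocytes, was not called (0.54 ± 0.30, adjusted p = 0.152). Its means were 8.38 on day 1 and 8.92 in the late tumours, well above those lowest intensities. Sox10, a neural crest regulator kept in melanocytes and Schwann cells, fell by 0.83 ± 0.18 (adjusted p = 0.00173), from 10.26, 10.82 and 11.12 to 9.22, 10.03 and 10.49, and changed by -0.90 in the narrow-gap comparison. Among other neural crest genes, Snai1 fell by 1.15 ± 0.15 while Zeb1 rose by 0.78 ± 0.14. Zeb2 rose by 0.78 ± 0.15 by its brightest probe set, and its mean over probe sets changed by -0.32.

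Most vessel genes rose. In the Blood and lymphatic endothelial list 11 of 18 tested members were called higher and 1 lower (median 0.54). Emcn, endomucin of venous and capillary endothelium, read 7.03, 7.21 and 7.81 on day 1 and 8.60, 8.90 and 9.35 late (1.58 ± 0.14, adjusted p = 5.33e-06), and Mmrn1, a lymphatic endothelial gene, 6.15, 7.15 and 7.83 and then 8.58, 9.67 and 10.16 (2.46 ± 0.30). The junction gene Pecam1 rose by 1.05 ± 0.16. Eng, a TGF beta co-receptor high in proliferating endothelium, fell by 1.39 ± 0.22. Of 13 pericyte and smooth muscle genes 3 rose and 2 fell, with Rgs5 up (1.89 ± 0.25) and Cspg4 down (-1.68 ± 0.22), Rgs5 reading 8.68, 9.36 and 9.88 and then 10.28, 11.33 and 11.85. The narrow-gap comparison called 3 of 18 endothelial members higher, Emcn at 1.60, Pecam1 at 1.09 and Mmrn1 at 1.98.

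Of 22 fibroblast and matrix genes 7 rose and 5 fell. Dpt and Ogn, small proteins of resting connective tissue, rose by 2.84 ± 0.47 and 2.56 ± 0.45, Dpt going from 6.84, 9.18 and 10.64 to 11.32, 11.93 and 12.55, and the matrix gene Fbln2 fell by 1.55 ± 0.27. Collagen genes fell in 7 of 19, with the basement membrane chains Col4a1 and Col4a2 at -0.73 ± 0.20 and -0.83 ± 0.19. The narrow-gap comparison called 3 of the 19 collagen genes lower, Col4a1 being at -0.26 and not called and Col4a2 at -0.77, and 3 of the 22 fibroblast and matrix genes were higher and 3 lower. Timp1, a protease inhibitor, read 12.08, 12.38 and 13.28 on day 1 and 9.33, 10.48 and 11.36 late (-2.17 ± 0.36, adjusted p = 0.000275), and its relative Timp4 rose by 1.59 ± 0.28. The interstitial collagenase Mmp1a fell by 3.21 ± 0.68 with day 1 tumours spread over 5.95, 7.65 and 11.40, and the membrane protease Mmp14 fell by 1.23 ± 0.24. Timp1, at -1.38, and Timp4, at 1.04, were called in the narrow-gap comparison, while Mmp1a, at -2.60, and Mmp14, at -0.76, were not.

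Circadian clock genes rose in 9 of 15 tested members (median 0.79). Clock, which encodes a partner of BMAL1, read 7.66, 7.87 and 8.06 and then 8.66, 8.83 and 9.16 (1.02 ± 0.10, adjusted p = 7.84e-06). The nuclear repressor Nr1d2 went from 9.38, 10.16 and 10.35 to 11.11, 11.54 and 12.03 (1.49 ± 0.17), and the output factor Hlf from 6.05, 6.39 and 6.66 to 7.36, 8.26 and 8.85 (1.76 ± 0.25). The repressor Nfil3 was the one member lower (-0.73 ± 0.27, named after its value was seen), and its call ended without any 1 of 8 tumours (adjusted p up to 0.091). Per3 rose by 1.30 ± 0.20, while Arntl, the gene of BMAL1, was not called. The labels give no time of day. In the narrow-gap comparison 3 of the 15 were called higher, and Clock, Nr1d2 and Hlf changed by 0.88, 1.29 and 1.37.

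Of 14 BCL2 family genes 2 rose and 5 fell. Bak1, an executioner of mitochondrial cell death, read 7.25, 8.48 and 8.86 and then 5.52, 6.10 and 6.79 (-2.15 ± 0.25, adjusted p = 1.95e-05), and the anti-apoptotic Bcl2l1 fell by 1.02 ± 0.23 although late tumour 6 stood at 9.86. Cdkn1a, the p53 target that arrests the cycle, fell by 1.14 ± 0.23, with late tumour 6 at 10.47 again the highest late value, and the p53 target Trp53inp1 rose by 0.89 ± 0.12. The endoplasmic reticulum chaperone Calr fell by 1.14 ± 0.08 (adjusted p = 2.31e-06) without overlap. Mitochondrial serine metabolism gene Shmt2 and proline synthesis gene Aldh18a1 changed by -0.98 ± 0.12 and -1.01 ± 0.16, and the serine phosphatase Psph rose by 0.87 ± 0.16. The inducible heat shock gene Hspa1b rose by 1.93 ± 0.34 over all late tumours and by 0.86, not called, in the narrow-gap comparison. Hypoxia genes fell in 6 of 18, with the collagen hydroxylase P4ha1 at -1.14 ± 0.19 and the carbonic anhydrase Car9 at -0.72 ± 0.13. Of the PI3K genes, Akt1 changed by -1.04 ± 0.18 and Irs2, an adaptor of the insulin receptor, by -1.05 ± 0.18, and the transcription factor Foxo3 rose by 0.53 ± 0.11. In the narrow-gap comparison 2 of the 14 BCL2 family genes and 2 of the 18 hypoxia genes were lower. Bak1 (-1.66), Akt1 (-0.74), Irs2 (-0.60) and Car9 (-0.92) were called there, and P4ha1 (-0.83), Psph (0.61) and Foxo3 (0.50) were not.

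**Figure D4:**
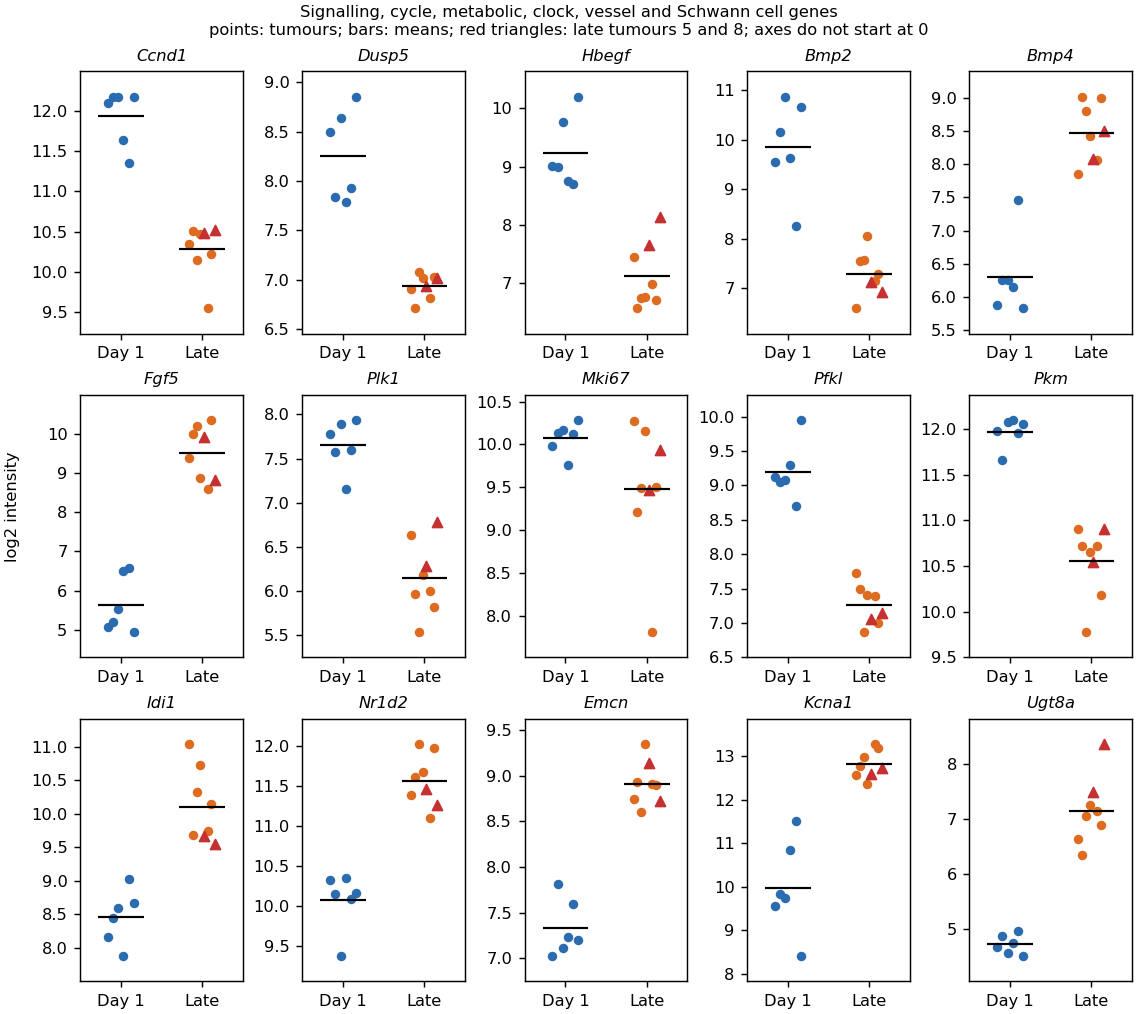
Log2 intensity (y axis) of 15 genes of the signalling, cell cycle, metabolic, clock, vessel and Schwann cell lists in each day 1 tumour (blue) and each late tumour (orange; red triangles for late tumours 5 and 8), with group means as bars. Groups are separate for every gene shown except Mki67, whose lowest late value of 7.81 is late tumour 6.

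Among genes outside the lists, the largest rises without overlap included metabolic enzymes and a nerve transporter. Inmt, a methyltransferase of small amines, read 5.93, 7.41 and 9.08 on day 1 and 9.25, 11.69 and 12.72 late (3.84 ± 0.58, adjusted p = 0.000129). Slc6a2, the noradrenaline transporter of sympathetic nerves, went from 5.21, 5.63 and 6.22 to 8.07, 8.50 and 9.30 (2.87 ± 0.24, adjusted p = 4.5e-06). The other tested probe set of Slc6a2 changed by 0.22 and was not called. The retinaldehyde dehydrogenase Aldh1a1 rose by 3.38 ± 0.44, the cytochrome P450 Cyp2f2 by 3.42 ± 0.40, the aldehyde oxidase Aox3 by 3.11 ± 0.46 and the tendon gene Tnmd by 3.37 ± 0.50. Nebl, an actin-binding protein gene, read 6.09, 6.65 and 7.41 and then 8.58, 10.12 and 10.83 (3.28 ± 0.31), the BMP family gene Gdf10 rose by 2.87 ± 0.36, and Steap4, a metalloreductase, by 2.72 ± 0.42 with late tumour 6 highest at 12.35. Of the 15 largest separate rises, 14 were called higher in the narrow-gap comparison as well, Dpt being the exception (2.45). Large falls outside the lists included those of Ms4a4b, a T cell membrane protein gene, from 8.06, 9.39 and 9.85 to 4.61, 5.16 and 6.93 (-3.78 ± 0.38, adjusted p = 9.21e-06), the cGMP-dependent kinase Prkg2 (-3.12 ± 0.29), the mast cell protease gene Mcpt1 (-2.82 ± 0.42) and the secreted glycoprotein Lgals3bp (-2.66 ± 0.25). All 15 largest separate falls were called lower there. Late tumours 5 and 8 were among those that chose these genes, so their directions there are no independent support. Aldh1a1 and Aox3 had day 1 means of 5.43 and 5.23, and Ms4a4b a late mean of 5.37, all below the filter cut of 5.67.

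Over all genes, late tumours 5 and 8 alone gave 3504 calls (26.0% of genes tested) against day 1, and 3007 of the 6831 calls over all late tumours were among them. Of those 6831, 202 had the opposite sign there, none of them called. The lists did not behave alike across the 8 late tumours. Levels of the Interferon response, Macrophage, MAPK output and Glycolysis lists in late tumours 5 and 8 lay on the late side of every day 1 tumour, as those of the other 6 late tumours did: 8.45 to 8.98 on day 1 and 7.76 to 8.14 in the late tumours for MAPK output, 10.00 to 10.45 on day 1 and 9.26 to 9.82 in the late tumours for Glycolysis, 10.44 to 10.76 on day 1 and 9.11 to 9.79 in the late tumours for Macrophage and 8.66 to 10.32 on day 1 and 7.49 to 8.65 in the late tumours for Interferon response, where the ranges do not meet. The Melanocyte and pigment and Keratinocyte and hair follicle levels of these 2 tumours, 6.79 and 7.03 and 5.65 and 7.49, lay within the day 1 ranges of 6.78 to 7.07 and 5.89 to 9.07 or below. The Keratinocyte and hair follicle level of late tumour 6, 7.88 at a Gapdh gap of 2.42, lay within the day 1 range too. For Adipocyte the levels of late tumours 5 and 8 were 7.27 and 7.18, below day 1 tumour 2 at 7.84 and above the other 5 day 1 tumours, at 6.39 to 6.94.

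**Figure D5:**
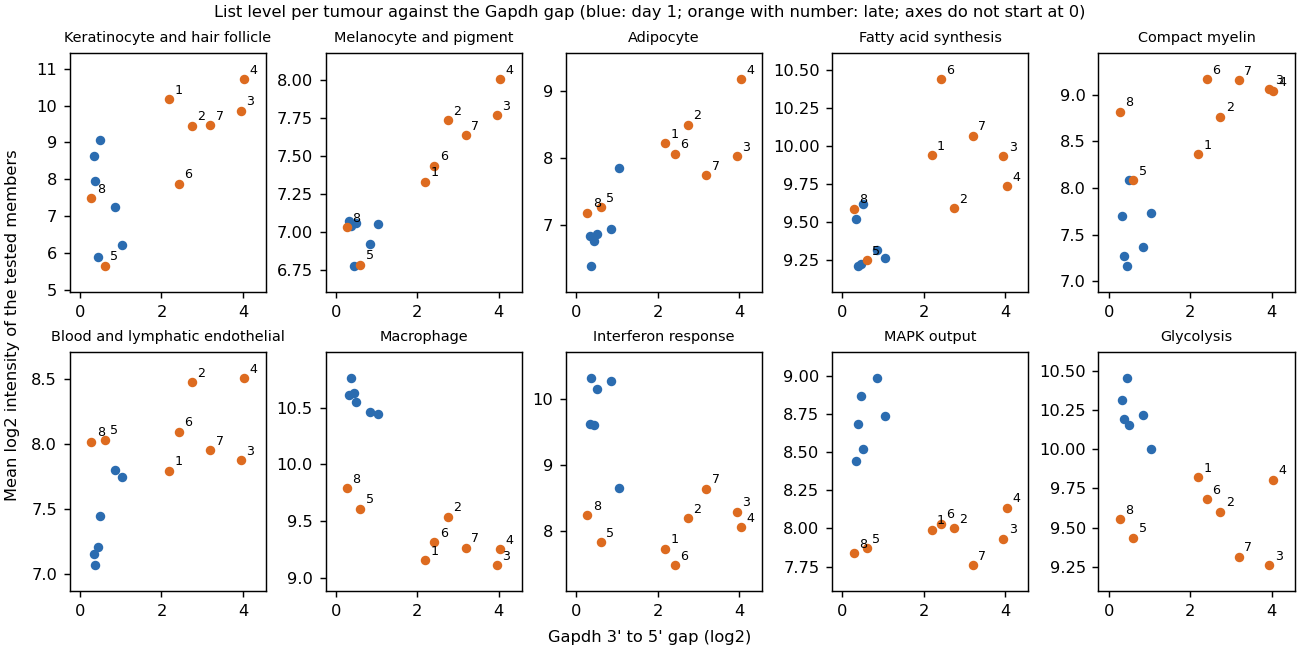
Mean log2 intensity of the tested members of 10 gene lists (y axes) against the Gapdh 3′ to 5′ gap (x axes, log2) in each day 1 tumour (blue) and late tumour (orange, numbered). For Macrophage, Interferon response, MAPK output and Glycolysis all 8 late tumours lie below all 6 day 1 tumours, while for Melanocyte and pigment and Keratinocyte and hair follicle late tumours 5 and 8, at gaps of 0.60 and 0.27, lie at the day 1 levels. Late tumour 6, at a gap of 2.42, also lies within the day 1 range for Keratinocyte and hair follicle.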

How the data were processed

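The deposited values are linear intensities per probe set, 1 table for 41 tumours. The submitters' processing notes name RMA and MAS5, with neither a version nor a role for either. Which of them made the values is not given in the sources used here. Of 45101 probe sets, 34958 name 1 gene, 932 several and 9211 none, and probe sets that name 1 gene were kept. From the authors' intensities, log2(value + 16) was quantile normalised over all 41 arrays, and the probe set of highest mean stood for each gene. A pseudocount understates the change of dim genes. Genes above the 40th percentile of the array on at least 6 of the 14 arrays compared were tested with lmFit and eBayes of limma 3.58.1 (R 4.3.3), and p-values were adjusted by Benjamini-Hochberg over all of them. Array gaps were compared by a two-sided exact permutation test. The fit was tested on simulated data with known changes. The number of arrays limits the precision. The members and lists were chosen with earlier results of these data known. Genes named are, by rule, the 15 largest rises and falls without overlap between groups, up to 4 called genes of lowest p in each list, and a fixed set including Braf, Ccnd1, Dusp6, Spry4, Etv4, Mitf, Sox10, Mki67 and Gapdh. Python 3.11.15 and matplotlib 3.10.9 served for promoters and figures. Alternatives concerned the scaling, pseudocount, filter, probe sets, fit, RNA quality and tumours included.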

Additional observations from a re-analysis of the deposited data

Results flagged for a closer look

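In 428 groups of 6 or 8 tumours checked, one per list level or named gene and group, 31 held a tumour far from the others by Dixon's criterion, where chance gives about 1 in 20. Late tumour 6, of day 90, gave 10 of them. It was low for the Neuron and axon list level (6.26), the Ribosomal protein list level (12.39), Ccl8 (10.23), Ccnd1 (9.55), Mki67 (7.81), Pcna (11.14) and Prim1 (7.59), and high for Bcl2l1 (9.86), Cdkn1a (10.47) and Steap4 (12.35). Day 1 tumour 2 gave 7, being low for MHC class I and antigen processing (10.32), Tap1 (8.64), Psmb8 (10.52), Bak1 (7.25), Eng (9.38) and Pkm (11.67), and high for Aox3 (6.03). Day 1 tumour 5 gave 5, all high: the Neutrophil level (9.48), S100a8 (13.50), S100a9 (13.43), Inflammatory chemokine and cytokine (9.94) and Bmp4 (7.46). The other 9 were the B and plasma cell level of day 1 tumour 6 (9.52), the Erythroid level of late tumour 4 (6.97), Gzmc and Insig1 of late tumour 2 (6.30 and 7.75), Nr1d2 and Rfc4 of day 1 tumour 3 (9.38 and 7.02), Tk1 of day 1 tumour 4 (7.92), Tpsab1 of late tumour 5 (6.85) and P4ha1 of late tumour 8 (8.27). Their part in the results was not tested beyond leaving each tumour out in turn.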

How the results depend on the processing

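The 6831 calls changed in number with the RNA quality terms, the late tumours entered, the fold limit and the probe sets tested. With the Gapdh gap as a covariate 4362 genes were called (1861 higher), and with the beta actin gap 3266 (1242 higher and 2024 lower). Of the 6831 calls, 3810 (55.8%) were also called with the Gapdh gap as a covariate. With the beta actin gap, 2744 (40.2%) were also called, so most of the 6831 calls were lost there. Some of the 6831 had the opposite sign with either covariate, none of them called. The 4 late tumours of narrowest Gapdh gap gave 2100 higher, the tumours of days 90 and 121 gave 3738 (1826 higher and 1912 lower), and late tumours 5 and 8, an alternative chosen after seeing the data, gave 3504 (1468 higher and 2036 lower). Fewer tumours entered the last 3 fits, and the cause of the lower counts was not tested. Asking for a 2-fold change left 1281 (602 higher and 679 lower), and testing every probe set gave 11517 called probe sets (5778 higher and 5739 lower), since more features were tested. Leaving out single tumours gave 6178 to 7177 calls, 3134 to 3888 higher and 3044 to 3479 lower, a Gapdh gap difference of 1.61 to 2.14 and a beta actin gap difference of 1.10 to 1.38. Signs turned in late tumours 5 and 8 for Krt17 (-0.32), Rab38 (-0.12) and Tyrp1 (-0.16), with the beta actin covariate for Tyrp1 (-0.13), and, on averaging all probe sets of the gene, for Zap70 (-0.30) and Zeb2 (-0.32); the cause was not tested. Of 80 named genes with several tested probe sets, 8 had sets of both signs (Bmpr2, Braf, Laptm5, Mbp, Prf1, Tpsb2, Zap70 and Zeb2). No paired analysis was possible because the labels number the tumours individually and no number is shared between groups.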
